A study of Mus musculus with 12 samples.

Results

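Genes of the renin-angiotensin system were followed in nuclear RNA of adult mouse cardiomyocytes, with and without an active form of the transcriptional co-activator YAP. The set held 8 gene symbols of the 46983 in the count table: Agt, Ren1, Ace, Agtr1a, Agtr1b, Agtr2, Mas1 and Atrnl1. Agt was picked because it is lower in YAP5SA nuclei, so its values are given as a description, with no test. The others were taken by name, with earlier results of these data known. Atrnl1, which encodes attractin-like 1, is not a known component of the renin-angiotensin system and is described apart from the rest. A minimum on low counts was passed by 5 of the 8 genes (Agt, Ace, Agtr1a, Mas1 and Atrnl1), and the other 3 had between 0 and 2 counts in each library.

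There were 4 nuclear RNA libraries in 2 groups, with 2 libraries each. Control nuclei came from adult Myh6-MCM mice given tamoxifen, and YAP5SA nuclei from adult Yap5SA+/tg; Myh6-MCM mice given tamoxifen. Both groups therefore carried Myh6-MCM, a tamoxifen-inducible Cre recombinase driven by the promoter of Myh6, a gene of cardiac myosin, and both received the drug. Nuclei had been selected on beads through PCM1, a centriolar satellite protein of cardiomyocyte nuclei, and the labels do not say whether the libraries of a group came from separate animals. If they did not, the spread between them and the p-values below may be technical.

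The renin-angiotensin system makes a peptide hormone by successive cleavages. Renin cuts angiotensin I from angiotensinogen, and angiotensin-converting enzyme (ACE) trims angiotensin I to angiotensin II, which acts through the type 1 and type 2 receptors. Further peptidases, neprilysin among them, turn the peptides into angiotensin 1-7, for which the Mas receptor has been described as a receptor. In the heart, signalling through the type 1 receptor, coupled to Gq, is known for its part in hypertrophy and fibrosis, and most circulating angiotensinogen is made by the liver.

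Promoter windows from RefSeq (GRCm38.p6, 250 bases before to 50 after a start site) matched 7 of the 8 symbols. Agtr1a was the symbol without one. The window of Agt is shown whole because Agt had the lowest level in YAP5SA relative to control among these genes. That of Mas1 is shown because it held the letters of the TEAD motif, bound by the factors through which YAP acts on DNA. Capitals mark motif matches on either strand, and each sequence runs 5′ to 3′ on the gene's strand.
Agt, chr8:124569657-124569956, minus strand: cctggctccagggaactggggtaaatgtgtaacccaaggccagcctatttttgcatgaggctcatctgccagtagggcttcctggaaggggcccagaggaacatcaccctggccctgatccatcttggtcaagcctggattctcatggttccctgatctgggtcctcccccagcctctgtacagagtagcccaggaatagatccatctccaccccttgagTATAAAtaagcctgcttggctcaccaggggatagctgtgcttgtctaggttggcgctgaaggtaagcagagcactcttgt
Mas1, chr17:12868094-12868393, minus strand: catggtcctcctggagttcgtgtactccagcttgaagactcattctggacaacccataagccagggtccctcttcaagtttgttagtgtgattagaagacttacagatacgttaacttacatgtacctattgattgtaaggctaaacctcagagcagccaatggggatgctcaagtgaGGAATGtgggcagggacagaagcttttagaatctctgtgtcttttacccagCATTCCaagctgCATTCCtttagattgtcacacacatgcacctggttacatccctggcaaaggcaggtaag

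The letters searched were GGAATG for TEAD, TATAAA for the TATA box, TGACTCA for AP-1 and AGAACA for the half-site of the glucocorticoid receptor, on both strands, and no matches overlapped in these windows. Mas1 held 3 TEAD matches, at bases -72 to -67, -21 to -16 and -9 to -4 from its start site, and no other window of the set held one. Of 32851 RefSeq promoter windows of this length, 14.7% held at least 1 such match. Agt, Ren1, Agtr1b and the upstream of 2 start sites of Ace held a TATA match between bases -31 and -24, and 13.6% of all windows held one anywhere. The AP-1 letters (5.20% of all windows) and the half-site (19.0%) were in none of the 8 windows. A match is a run of letters and not a measured binding site. The stretch from 50 bases before to 10 after the start site shows the TATA letters at nearly the same place in the other 3 genes, those of Ace on the opposite strand.
Ren1, chr1:133350624-133350683, plus strand: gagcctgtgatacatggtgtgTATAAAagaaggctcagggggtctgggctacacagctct
Ace, chr11:105967898-105967957, plus strand: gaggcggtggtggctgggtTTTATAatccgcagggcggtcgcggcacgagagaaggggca
Agtr1b, chr3:20367168-20367227, minus strand: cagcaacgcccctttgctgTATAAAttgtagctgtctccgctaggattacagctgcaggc

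Of the genes tested beside Agt, 0 of 4 passed a threshold of 0.05 on the adjusted p of edgeR's quasi-likelihood test, against 4.12% of 17715 genes over the whole table. At an unadjusted p under 0.05 there was 1, Agtr1a, where 23.7% of all tested genes were under that value, a share close to 1 of 4. Agtr1a also passed with DESeq2, while 0 passed with limma-voom. Libraries of the groups did not overlap for 1 of the 4 genes, again Agtr1a, against 56.3% of all tested genes. Total counts ran from 7850661 to 15012122, and levels are given as CPM (counts scaled to a common library size, with TMM, a trimmed-mean factor per library). The control libraries lay farther apart than the YAP5SA libraries, with an SD over tested genes of the log2 difference between replicates of 0.80 in control and 0.34 in YAP5SA. The plot of the 8 genes by library shows this in Agt, Ace and Mas1.

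**Figure D1:**
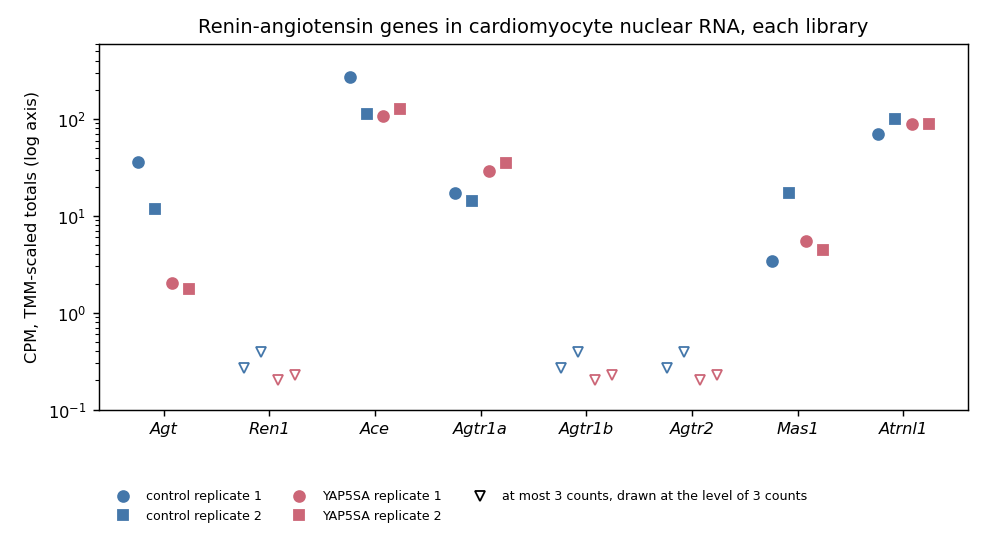
Level of each of the 8 genes in each library (CPM, log axis); blue stands for control and red for YAP5SA, circles for replicate 1 and squares for replicate 2, and open triangles mark at most 3 counts, drawn at the level of 3 counts. Agt lay at 35.7 and 11.7 CPM in control and at 2.02 and 1.74 CPM in YAP5SA, while Ren1, Agtr1b and Agtr2 stayed at or under the floor in all 4 libraries.

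Agt encodes angiotensinogen, the substrate from which all angiotensin peptides are cut. It lies on chromosome 8 from 124556534 to 124569706 (mm10, minus strand), and no other annotated gene overlaps it. Agt had 395 and 89 counts in control replicates 1 and 2, and 30 and 23 counts in YAP5SA replicates 1 and 2. Both YAP5SA libraries were far below both control libraries, and the control libraries differed from each other by more than 3 times. As levels these were 35.7 and 11.7 CPM in control (23.7 ± 16.9, SD, n = 2) and 2.02 and 1.74 CPM in YAP5SA (1.88 ± 0.194, SD, n = 2). The fitted log2 fold change, YAP5SA minus control, was -3.66 (SE 0.595), so that Agt was 12.6-fold lower. Even the lower control library was 5.82 times as high as the higher YAP5SA library. Over the whole table, both YAP5SA libraries lay below both control libraries in 28.3% of tested genes, and since Agt was chosen on this contrast nothing is read from its place there. Leaving out control replicate 1 gave a log2 fold change of -2.62, and leaving out control replicate 2 gave -4.20. Of the 17715 genes tested, 47 had a lower fold change than Agt.

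A comparison within each library does not depend on how libraries were scaled. Counts of Agt were 0.131 and 0.104 of those of Ace in control, and 0.0189 and 0.0137 of those of Ace in YAP5SA. The control libraries, 3.04 times apart for Agt itself, were close to each other in this ratio, because Ace was also higher in control replicate 1 (272 CPM) than in control replicate 2 (112 CPM). Both lay well above the YAP5SA libraries, which is a description only, since Agt was picked for its fall. Relative to Agtr1a, Agt stood at 2.08 and 0.832 in control and at 0.0690 and 0.0497 in YAP5SA. Agtr1a was itself 2.05-fold higher in YAP5SA, which widens the gap in that ratio.

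Control replicate 1 was also the highest library for some genes of the aldosterone and mineralocorticoid list, of which 3 were singled out after their values were seen. Fkbp5, which encodes a co-chaperone of the glucocorticoid receptor, measured 227 and 24.4 CPM in control and 43.4 and 47.2 CPM in YAP5SA. Tsc22d3, which encodes the glucocorticoid-induced protein GILZ, measured 161 and 66.6 CPM in control and 88.8 and 62.5 CPM in YAP5SA. Sgk1, a kinase gene induced by aldosterone, measured 215 and 55.1 CPM in control and 117 and 87.2 CPM in YAP5SA. Unlike Agt, none of the 3 had both YAP5SA libraries below both control libraries. Hsd11b1, of the same list, was also highest in control replicate 1, at 12.4 and 7.12 CPM in control and 7.73 and 9.85 CPM in YAP5SA. Nr3c2, Nr3c1 and Hsd11b2, also tested from that list, were highest in other libraries. Cebpd, the gene of a transcription factor also known to respond to glucocorticoids, was lowest in control replicate 1, at 73.5 and 85.3 CPM in control and 113 and 111 CPM in YAP5SA. Of the tested genes, 3.10% had a ratio of control replicate 1 to control replicate 2 as high as that of Agt. The part of this difference between control libraries in the level of Agt was not tested.

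Among 11075 other genes with a mean of at least 5 CPM, the nearest pattern to Agt over the 4 libraries was that of Gpnmb, which encodes a transmembrane glycoprotein. Likeness was the Euclidean distance between log2 CPM values centred on each gene's mean, and it was 0.18 for Gpnmb. Gpnmb measured 73.1 and 26.5 CPM in control and 4.03 and 4.09 CPM in YAP5SA. The next were Chd5, a chromatin remodeler gene (distance 0.48), Pcsk4, a proprotein convertase gene (0.51), Slc4a8, a bicarbonate transporter gene (0.53), and Col7a1, which encodes type VII collagen (0.58). With 4 libraries such likeness is a description of these libraries.

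**Figure D2:**
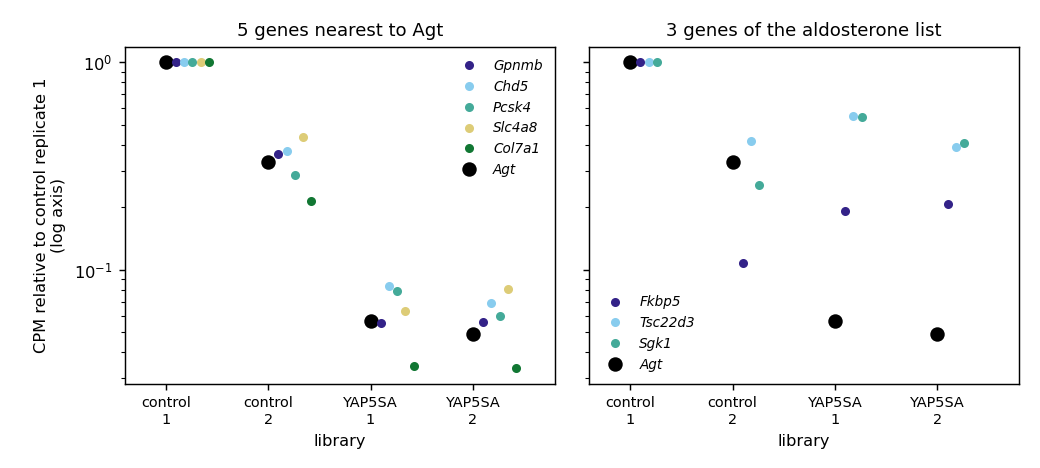
Level in each library relative to control replicate 1 (log axis), with Agt as large black points beside the 5 genes of the nearest pattern (left) and 3 genes of the aldosterone and mineralocorticoid list, singled out after their values were seen (right). The 5 genes follow Agt down in both YAP5SA libraries, whereas Fkbp5, at 24.4 CPM in control replicate 2 and 43.4 and 47.2 CPM in YAP5SA, does not.

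The nearest neighbour of Agt on the chromosome differed little between the libraries. Cog2, a Golgi complex gene whose end lies 4526 bases from Agt, measured 30.8 and 31.9 CPM in control and 28.1 and 28.9 CPM in YAP5SA (log2 fold change -0.14, adjusted p = 0.651). On the other side, at 6405 bases, Capn9, a calpain gene, had at most 3 counts in any library. Of the 5 genes within 200 kb of Agt that passed the minimum on low counts, 1 passed the threshold, against 4.12% of all tested genes. It was 2310022B05Rik, 66050 bases away, which rose 3.52-fold (adjusted p = 0.0305), in the opposite direction to Agt. Pgbd5, a transposase-derived gene 116876 bases away, was below the minimum, with 29 and 5 counts in control and 4 and 6 counts in YAP5SA.

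Ren1 encodes renin, the aspartic protease that starts the cascade, which is made mainly by juxtaglomerular cells of the kidney (chromosome 1, 133350510 to 133360325). It had 2 and 0 counts in control and 1 and 1 counts in YAP5SA. All 4 libraries were under the floor of 3 counts, which corresponds to between 0.202 and 0.396 CPM depending on the library, and no fold is given. Whether renin RNA differed between the groups was not detectable at this depth.

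Ace encodes angiotensin-converting enzyme, a membrane-bound peptidase known for its high level on endothelial cells (chromosome 11, 105967945 to 105989964). With 272 and 112 CPM in control and 107 and 127 CPM in YAP5SA, it had the highest level per length of the set, 36.3 CPM per kilobase of exon in control and 22.1 in YAP5SA. Control replicate 1 was high, and the other 3 libraries lay close together and overlapped between the groups. The log2 fold change of Ace was -0.72 (SE 0.418, 95% interval -1.77 to 0.33) and it did not pass (adjusted p = 0.353). Without control replicate 1 its log2 fold change was 0.06, and without control replicate 2 it was -1.18. The direction for Ace thus rested on which control library was used. A gene model on the other strand, Gm11651, overlaps an exon of Ace, and it had 1 count in total.

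Markers of endothelial cells were lower in the YAP5SA libraries. Of 10 such markers, all had a negative fold change, with none at 0. Vwf and Robo4, 2 of the 10, fell, where 0.999% of all tested genes fell. At an unadjusted p under 0.05, 8 of the 10 were lower, against 10.9% of all tested genes. The summed level of the 10 markers was 1811 and 1291 CPM in control and 1002 and 961 CPM in YAP5SA, again highest in control replicate 1. In RNA from many nuclei, fewer nuclei of a type and less RNA per nucleus cannot be told apart, and the part of endothelial nuclei in the level of Ace was not tested.

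Agtr1a encodes the type 1a angiotensin II receptor, the main Gq-coupled receptor of the hormone in rodents (chromosome 13, 30336441 to 30382867). It had 190 and 107 counts in control and 435 and 463 counts in YAP5SA. The corresponding levels were 17.2 and 14.1 CPM in control (15.6 ± 2.16, SD, n = 2) and 29.2 and 35.1 CPM in YAP5SA (32.2 ± 4.12, SD, n = 2). Both YAP5SA libraries lay above both control libraries, the nearest pair by 1.70 times, an order that 28.1% of tested genes shared. The log2 fold change was 1.04 (SE 0.206, 95% interval 0.52 to 1.55), a 2.05-fold higher level, and its adjusted p of 0.0579 missed the threshold. Agtr1a passed with DESeq2 (adjusted p = 0.0226) and with edgeR without a minimum on low counts (adjusted p = 0.000766). Its adjusted p was 2.57e-08 without control replicate 1 and 1.11e-06 without control replicate 2, and 0.269 and 0.591 without YAP5SA replicate 1 or 2. The direction was positive in all 11 alternatives, with log2 fold changes from 0.92 to 1.19. Since the libraries of the groups did not overlap, leaving out 1 library could hardly turn it.

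Agtr1b, the gene of the second rodent form of the type 1 receptor (chromosome 3, 20314473 to 20367177), and Agtr2, which encodes the type 2 receptor (chromosome X, 21484544 to 21489164), had 0 counts in all 4 libraries. A count of 0 allows up to 3 counts, so the floors were 0.271 CPM in control replicate 1, 0.396 in control replicate 2, 0.202 in YAP5SA replicate 1 and 0.227 in YAP5SA replicate 2. The coding sequences of Agtr1a and Agtr1b are closely alike, and reads that fit both may have been dropped or counted under one of them. Among the receptors of angiotensin II, Agtr1a was thus the only one with counts in these libraries.

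Mas1 encodes the Mas receptor (chromosome 17, 12841079 to 12868143, minus strand). It measured 3.43 and 17.1 CPM in control and 5.44 and 4.39 CPM in YAP5SA. Control replicate 2 stood alone, and control replicate 1 was below both YAP5SA libraries. Its log2 fold change of -1.04 (SE 0.724, 95% interval -2.85 to 0.78) did not pass (adjusted p = 0.432). Without control replicate 1 it was -1.79, and without control replicate 2 it turned to 0.56. Mas1 passed with edgeR without a minimum on low counts (adjusted p = 0.0347), a fit that called 1727 of 30546 genes higher and 1689 lower.

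Airn, a long antisense RNA of the imprinted Igf2r region, is transcribed through Mas1 from the other strand (12741311 to 12860136, plus strand), and 87.4% of the exon bases of Mas1 lie inside its span. Airn measured 74.5 and 296 CPM in control and 97.4 and 89.1 CPM in YAP5SA. The order of the 4 libraries was the same for Mas1 and Airn. Counts of Mas1 were 0.0461, 0.0580, 0.0559 and 0.0493 of those of Airn in control replicates 1 and 2 and YAP5SA replicates 1 and 2, while the level of Mas1 itself ranged between 3.43 and 17.1 CPM. No strand setting of the counting is given in the sources used here, so reads of Mas1 and of Airn cannot be told apart.

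**Figure D3:**
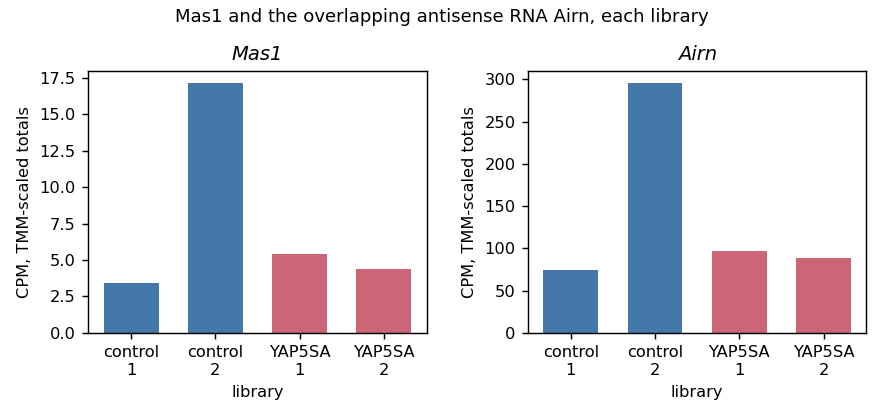
Level of Mas1 (left) and of the overlapping antisense RNA Airn (right) in each library (CPM, linear axes from 0), with control in blue and YAP5SA in red. Both were highest in control replicate 2, Mas1 at 17.1 CPM and Airn at 296 CPM, and the other 3 libraries lay close together.

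Atrnl1 encodes a transmembrane protein related to attractin (chromosome 19, 57611034 to 58133343). It measured 70.0 and 98.9 CPM in control and 89.3 and 88.6 CPM in YAP5SA, so that the control libraries enclosed the YAP5SA libraries. Its log2 fold change was 0.08 (SE 0.212, 95% interval -0.45 to 0.61, adjusted p = 0.862), and leaving out control replicate 1 or 2 moved it to -0.14 or 0.38. A change in Atrnl1 within that interval could not be seen with these libraries.

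Per kilobase of exon the order in control was Ace at 36.3 CPM, Atrnl1 at 12.8, Agt at 12.5, Agtr1a at 5.61 and Mas1 at 3.93. Among control libraries the ranges of Atrnl1 (10.6 to 15.0) and Agt (6.20 to 18.9) overlapped, as did those of Agtr1a (5.06 to 6.16) and Mas1 (1.31 to 6.54) and those of Agt and Mas1. In YAP5SA the order was Ace at 22.1, Atrnl1 at 13.5, Agtr1a at 11.5, Mas1 at 1.88 and Agt at 0.994. The place of Agt in control rested on a mean of libraries far apart: it lay above Atrnl1 in control replicate 1 and below Mas1 in control replicate 2. In both YAP5SA libraries Agt was the lowest of the 5, and no library of Agt in YAP5SA (0.921 to 1.07) overlapped those of Mas1 (1.68 to 2.08). Counting in nuclear RNA may or may not have included intronic reads, which is not stated, and that limits any order by exon length. The place of Mas1 is limited further, since its reads and those of Airn cannot be told apart.

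**Figure D4:**
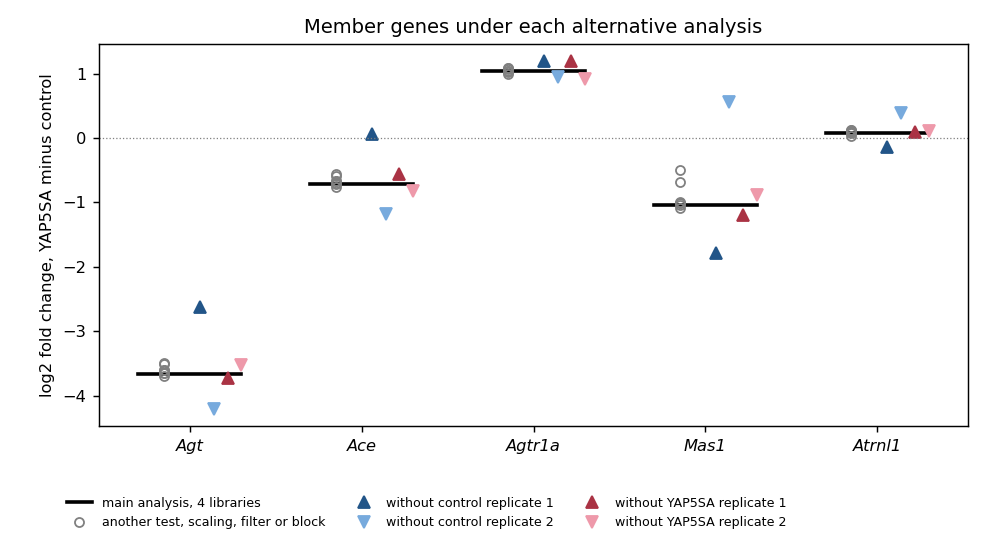
Log2 fold change (YAP5SA minus control) of the 5 genes that passed the minimum on low counts, with black lines for all 4 libraries, grey circles for another test, scaling, minimum or replicate block, and triangles for fits without 1 library. Agt stayed between -4.20 and -2.62 and Agtr1a between 0.92 and 1.19, whereas Ace, Mas1 and Atrnl1 changed sign without 1 of the control libraries. The libraries of the groups overlapped for Ace, Mas1 and Atrnl1 but not for Agt or Agtr1a, whose sign could hardly turn without 1 library.

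Other genes of the pathway were read from 6 lists, which were chosen with earlier results of these data known. They held 81 genes in all besides the 8, of which 80 were found in the table and 65 passed the minimum on low counts. Of the 65, 5 rose and 2 fell, where 3.12% of all tested genes rose and 0.999% fell. The median log2 fold change was 0.05 over these genes and -0.06 over all tested genes. With the replicate number as a block, 1 of the 7 passed, Arrb2, and without YAP5SA replicate 1 or without YAP5SA replicate 2 none did (0 of 65 with edgeR). All 7 also passed with DESeq2 and with limma-voom.

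Of 13 tested peptidases that make or degrade angiotensins, 2 rose and 0 fell, and 9 had a positive fold change (median 0.41). Mme, which encodes neprilysin, a peptidase that forms angiotensin 1-7 and degrades natriuretic peptides, measured 7.68 and 4.88 CPM in control and 19.3 and 19.3 CPM in YAP5SA. This was a 3.04-fold rise of Mme (log2 fold change 1.60, SE 0.280, adjusted p = 0.0465). Prep, which encodes prolyl oligopeptidase, another enzyme able to release angiotensin 1-7, rose from 59.9 and 67.0 CPM to 130 and 154 CPM (2.24-fold, adjusted p = 0.0376). Cma1 and Ctsg, which encode chymase and cathepsin G, serine proteases of mast cells and neutrophils that can form angiotensin II without ACE, had at most 3 counts in any library.

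Among 12 tested receptor partners, 1 rose and 0 fell (median 0.09). At an unadjusted p under 0.05, 3 were higher and 2 lower (Rgs4 and Rgs5), against 12.7% and 10.9% of all tested genes. With DESeq2 1 fell, Rgs5. Arrb2, which encodes beta-arrestin 2, the adaptor that desensitises and internalises the type 1 receptor, rose from 11.9 and 9.89 CPM to 29.2 and 36.0 CPM (2.98-fold, adjusted p = 0.0321). Its paralog Arrb1 measured 51.9 and 48.9 CPM in control and 81.1 and 85.6 CPM in YAP5SA and missed the threshold (adjusted p = 0.0683). Agtrap, which encodes a protein that binds the type 1 receptor and favours its internalisation, measured 49.1 and 25.0 CPM in control and 25.6 and 27.4 CPM in YAP5SA (adjusted p = 0.420). As with Ace, the library that stood apart was control replicate 1, and Agtrap kept between 0.181 and 0.240 of the counts of Ace in all 4 libraries. Atp6ap2, which encodes the (pro)renin receptor, measured 53.4 and 27.3 CPM in control and 39.5 and 44.5 CPM in YAP5SA (adjusted p = 0.940).

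Of 18 genes of signalling below the type 1 receptor, all tested, 2 rose and 1 fell (median 0.04). The list was drawn up for Gq signalling but also held Gna12, Gna13 and Arhgef1, which are not Gq genes. Plcb4, which encodes a phospholipase C activated by Gq, fell from 138 and 131 CPM to 65.9 and 61.3 CPM (2.12-fold, adjusted p = 0.0354). Prkcb, which encodes protein kinase C beta, rose from 6.05 and 7.12 CPM to 15.7 and 18.3 CPM (2.59-fold, adjusted p = 0.0447). Cybb, which encodes the catalytic subunit of the phagocyte NADPH oxidase, rose from 32.9 and 28.6 CPM to 62.6 and 70.7 CPM (2.17-fold, adjusted p = 0.0399). The genes of Gq itself, Gnaq and Gna11, did not pass, with Gnaq at 81.2 and 68.0 CPM in control and 82.6 and 76.3 CPM in YAP5SA (adjusted p = 0.793).

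Macrophage markers were higher in the same libraries as Cybb and Prkcb, genes also expressed by myeloid cells. Of 10 macrophage markers all had a positive fold change and 6 rose, with none at 0, where 3.12% of all tested genes rose. Together the 10 markers summed to 822 and 572 CPM in control and 1415 and 1703 CPM in YAP5SA. Their part in the levels of Cybb and Prkcb was not tested.

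**Figure D5:**
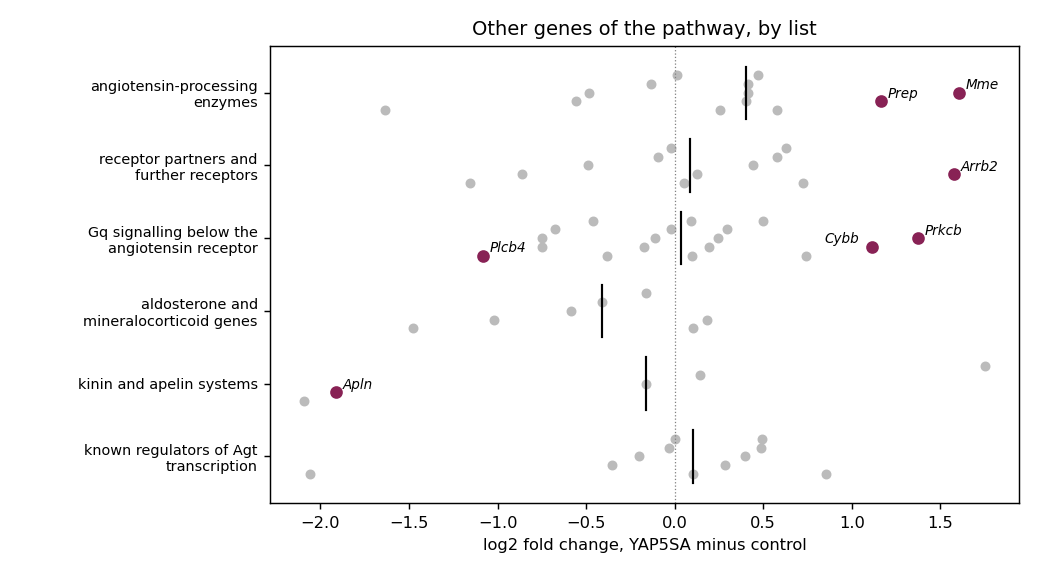
Log2 fold change (YAP5SA minus control) of each tested gene of 6 lists, with genes past an adjusted p of 0.05 in purple and named, other genes in grey, and the median of each list as a black line. The named genes lie on both sides of 0, from Apln at -1.91 to Mme at 1.60, and the medians lie between -0.41 and 0.41.

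Of 5 tested genes of the kinin and apelin systems, which act against angiotensin II in many tissues, 0 rose and 1 fell. Apln, which encodes the peptide apelin, fell from 11.8 and 11.2 CPM to 3.23 and 2.88 CPM (3.76-fold, adjusted p = 0.0323). Apelin is known to be made by endothelial cells, whose markers were given beside Ace, and their part in the level of Apln was not tested. The gene of its receptor, Aplnr, measured 6.77 and 32.6 CPM in control and 61.8 and 69.1 CPM in YAP5SA and did not pass (log2 fold change 1.75, adjusted p = 0.197). Bdkrb2, which encodes the B2 kinin receptor, lay at 4.25 and 12.0 CPM in control and 7.80 and 9.92 CPM in YAP5SA (adjusted p = 0.891). Cpm, a gene of the same list, was at 43.3 and 11.5 CPM in control and 7.46 and 5.45 CPM in YAP5SA. Its log2 fold change was -2.09 (adjusted p = 0.130), and it fell with DESeq2.

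Of 7 tested aldosterone and mineralocorticoid genes, 0 passed with edgeR, DESeq2 or limma-voom, and 1 was lower at an unadjusted p under 0.05, a share near the 10.9% of all tested genes. That gene was Nr3c2, which encodes the mineralocorticoid receptor, at 31.9 and 65.0 CPM in control and 26.6 and 20.9 CPM in YAP5SA (adjusted p = 0.175). The genes of the aldosterone-forming enzymes of the adrenal, Cyp11b1 and Cyp11b2, had at most 3 counts in any library.

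Known regulators of Agt transcription did not pass with edgeR or limma-voom in either direction (0 of 11 tested), while 1 rose with DESeq2 (Cebpb) and 3 were higher at an unadjusted p under 0.05, where 12.7% of all tested genes were. Nr3c1, which encodes the glucocorticoid receptor, measured 145 and 175 CPM in control and 167 and 177 CPM in YAP5SA (adjusted p = 0.764). Cebpb, which encodes a transcription factor of the acute phase response, measured 28.4 and 26.5 CPM in control and 54.9 and 44.3 CPM in YAP5SA (adjusted p = 0.0698). The gene of the oestrogen receptor, Esr1, stood at 57.1 and 735 CPM in control and 77.2 and 113 CPM in YAP5SA, with control replicate 2 far above the rest. MCM, the Cre carried by both groups, is flanked by parts of a mouse oestrogen receptor, and reads of the transgene and of Esr1 cannot be told apart here.

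Defining genes of the labelled cell type were abundant, and those of other cell types that can make angiotensinogen were also present in part. All 10 cardiomyocyte markers had counts in every library, with summed levels of 35126 and 71637 CPM in control and 25423 and 27168 CPM in YAP5SA. Most of each sum came from Ttn, at 19850 and 48026 CPM in control and 15461 and 16635 CPM in YAP5SA. All 10 had a negative fold change (median log2 fold change -1.09). With edgeR 0 of them passed, 5 were lower at an unadjusted p under 0.05 against 10.9% of all tested genes, 5 fell with DESeq2 and 0 with limma-voom. The 10 fibroblast markers summed to 7348 and 5978 CPM in control and 5922 and 7299 CPM in YAP5SA, with none at 0. Fold changes were positive in 5 of them and negative in 5 (median log2 fold change -0.05). Lum and Pi16, 2 of the 10, rose and 0 fell, where 3.12% of all tested genes rose and 0.999% fell. Of 10 adipocyte markers 4 passed the minimum on low counts. Retn was at 0 in all libraries, Adipoq, the gene of adiponectin, had at most 2 counts, and Lep, which encodes leptin, had 0 counts in either control library and 15 and 17 counts in YAP5SA (adjusted p = 0.0551). Cfd, which encodes adipsin, had 38 and 7 counts in control and 7 and 1 counts in YAP5SA (log2 fold change -2.95, adjusted p = 0.142), highest in control replicate 1 as Agt was. The 10 genes summed to 170 and 108 CPM in control and 135 and 125 CPM in YAP5SA, and nearly all of this came from Adipor2 (101 and 71.7 CPM in control) and Lipe (63.3 and 35.1 CPM in control), which other cells express too. The smooth muscle and pericyte markers summed to 1716 and 1542 CPM in control and 1592 and 1737 CPM in YAP5SA, a sum in which opposite differences met. Of these 9 genes 1 rose, Acta2, where 3.12% of all tested genes rose. Acta2, which encodes smooth muscle actin, went from 157 and 97.3 CPM to 710 and 915 CPM. In 6 of the 9 the fold change was negative (median of the 9, -0.85). At an unadjusted p under 0.05, 4 of them (Cnn1, Rgs5, Kcnj8 and Abcc9) were lower, against 10.9% of all tested genes. With edgeR 0 of the 9 passed downward, against 2 with DESeq2 and 1 with limma-voom. Rgs5, a pericyte gene, measured 719 and 422 CPM in control and 269 and 243 CPM in YAP5SA (log2 fold change -1.15, adjusted p = 0.10). The mast cell markers summed to between 14.8 and 26.5 CPM in control and 8.20 and 8.71 CPM in YAP5SA. Of these 8 genes 1 passed the minimum on low counts, Kit, which made up most of the sum. Kit measured 22.9 and 13.1 CPM in control and 7.06 and 7.80 CPM in YAP5SA (adjusted p = 0.0928). The Schwann cell markers summed to between 19.9 and 27.4 CPM in control and 37.2 and 38.4 CPM in YAP5SA. Of 7 tested, 5 had a negative fold change and 1 passed the threshold upward, Mbp, where 3.12% of all tested genes rose. Mbp measured 5.60 and 3.82 CPM in control and 19.9 and 19.9 CPM in YAP5SA. The part of any cell type in the level of Agt was not tested.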

How the data were processed

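The authors deposited 1 table of raw counts by gene symbol, from stranded, ribosomal-RNA-depleted, paired-end libraries mapped to mm10 with STAR, per the labels' protocols. The program, strand setting and annotation used in counting were not given in the sources used here. The submitters' processing notes also name DESeq2. Genes were kept by filterByExpr (minimum count 10), scaled by TMM and tested in edgeR 4.0.16 under R 4.3.3 by quasi-likelihood on all 4 libraries, without a replicate block, with Benjamini-Hochberg adjustment over 17715 genes. SE is the absolute log2 fold change over the root of the F statistic, and 95% intervals are not adjusted for multiple tests. The pipeline was tested on simulated data. Alternatives were DESeq2 1.42.0, limma-voom (limma 3.58.1), other scalings and minimums, a block and fits without 1 library. Floors cover counting error only. Coordinates and exon lengths come from GENCODE M21 (GRCm38, the same assembly as mm10), and older symbols were used for Grk2 and Dpp3 (Ren2 did not match). The 8 genes and all lists were chosen with earlier results of these data known. The rule for named genes took the 8 genes, pathway genes past the threshold, the 5 nearest patterns to Agt (log2 CPM with a prior count of 2) and genes within 200 kb of it. Other genes were named after their values were seen. The ATAC-seq and 4C-seq samples were not analysed here.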

Additional observations from a re-analysis of the deposited data

How the results depend on the processing

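Direction was the same as with all 4 libraries in each of the 11 alternatives for Agt, Agtr1a and the 7 pathway genes that passed. It turned for Ace without control replicate 1 (log2 fold change 0.062, against -1.18 without control replicate 2), for Mas1 without control replicate 2 (0.56, against -1.79 without control replicate 1) and for Atrnl1 without control replicate 1 (-0.14, against 0.38 without control replicate 2). The libraries of the groups overlapped for Ace, Mas1 and Atrnl1. For Agt, Agtr1a and the 7 pathway genes they did not overlap, so leaving out 1 library could hardly turn the direction. Agt was also picked for its fall, and the 7 pathway genes for passing. In the 4 fits that each left out 1 library, the lone library of a group was assumed to vary like the other group.

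Of all tested genes, 553 were higher and 177 lower. DESeq2 called 940 higher and 419 lower, edgeR without a minimum on low counts 1727 and 1689, and edgeR with the replicate block 321 and 112. Without 1 library the counts ran from 27 to 3748 higher and from 0 to 3554 lower. Among members other than Agt, 0 passed with all libraries, 1 with DESeq2, 2 without a minimum on low counts and between 0 and 3 without 1 library. Pathway genes numbered 5 higher and 2 lower. They were 9 and 7 without a minimum on low counts and 1 and 0 with the replicate block, DESeq2 called 4 lower, and without 1 library they ran from 0 to 25 higher and from 0 to 16 lower. Replicate numbers only name the libraries: the differences between replicates 1 and 2 had a correlation over genes of -0.09 between the groups. With the block, 6 of the 7 pathway calls were lost.

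Depth limits Ren1, Agtr1b and Agtr2, each at most at 2 counts, and 2 libraries a group limit all tests.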
